A study of Mus musculus with 2 samples.

Results

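The integrated stress response and serine synthesis were followed in mouse macrophages through 10 genes: Asns, Chac1, Trib3, Ddit4, Sesn2, Psat1, Phgdh, Shmt2, Mthfd2 and Ppp1r15a. They were taken by gene symbol, with earlier results of these data known. All 10 of them had an entry among the 55536 gene entries of each library. The cells were bone marrow-derived macrophages (BMDM), phagocytes cultured out of marrow, from the mouse strain C57BL/6J; no genetic change is named in the labels, and age and sex were not collected. Both libraries come from cells exposed to Lipid A at 100 ng/ml over 12 h, then washed free of it for 12 h, and exposed once more at 100 ng/ml for 30 min before RNA was taken. Lipid A is the portion of bacterial lipopolysaccharide sensed by Tlr4; another label of the same samples writes lipoprotein A in its place, and the labels do not settle which is right. This was the only group, with 2 biological replicates under 1 donor record, and nothing says that they came from separate animals. Untreated and singly treated cells were not analysed here, so the values describe levels in restimulated cells and say nothing of induction, and differences between the libraries are differences between replicates.

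The integrated stress response starts when 1 of a small family of kinases phosphorylates the translation factor eIF2. Protein synthesis then slows in general while the transcription factor Atf4 is made, and Atf4 with its partners turns on genes for amino acid synthesis, amino acid import and one-carbon metabolism, together with feedback genes. Serine synthesis branches off glycolysis, and serine feeds glycine and the folate cycle in mitochondria. In macrophages these pathways supply nucleotides, glutathione and methyl groups.

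The promoters of 4 of the genes are printed because they hold a sequence that Atf4 or related factors are known to bind. Windows of 250 bases before to 50 bases after each RefSeq start (GRCm38.p6, the build of the deposited tables) were matched for 10 of 10 genes, with 11 windows since Psat1 has more than 1 start. Each stretch runs 5′ to 3′ on the gene's strand from base -210, counted from the RefSeq start with no base 0, to at most 30 bases past the more upstream of the RefSeq and GENCODE starts. Capitals mark the core of the C/EBP-ATF response element (TGATGNAA) in Asns, Chac1 and Trib3 and the cyclic AMP response element (TGACGTCA) in Ppp1r15a, on either strand.
Asns (chr6:7693225-7693419, minus strand): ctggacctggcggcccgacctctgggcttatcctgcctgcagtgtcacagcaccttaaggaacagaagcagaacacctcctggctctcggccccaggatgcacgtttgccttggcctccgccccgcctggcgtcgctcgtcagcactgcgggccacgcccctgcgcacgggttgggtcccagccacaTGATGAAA
Chac1 (chr2:119351032-119351258, plus strand): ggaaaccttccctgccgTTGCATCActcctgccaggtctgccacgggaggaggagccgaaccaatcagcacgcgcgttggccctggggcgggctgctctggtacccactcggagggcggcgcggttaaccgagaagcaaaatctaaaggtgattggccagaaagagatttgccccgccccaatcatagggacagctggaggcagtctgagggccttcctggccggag
Trib3 (chr2:152344031-152344270, minus strand): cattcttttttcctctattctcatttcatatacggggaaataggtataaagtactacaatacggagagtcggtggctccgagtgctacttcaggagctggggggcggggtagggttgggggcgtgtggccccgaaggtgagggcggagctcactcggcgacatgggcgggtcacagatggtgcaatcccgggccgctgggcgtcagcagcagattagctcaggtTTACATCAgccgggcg
Ppp1r15a (chr7:45526239-45526478, minus strand): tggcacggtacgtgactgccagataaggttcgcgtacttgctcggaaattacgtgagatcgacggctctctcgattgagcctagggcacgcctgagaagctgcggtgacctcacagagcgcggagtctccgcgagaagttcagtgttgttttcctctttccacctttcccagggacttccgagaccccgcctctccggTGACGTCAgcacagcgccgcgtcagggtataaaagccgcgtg

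Both strands of every window were searched for 3 patterns. TGATGNAA was in 3.97% of all 32851 windows and in 3 of the 10 genes: it lay at -23 to -16 in Asns, and on the reverse strand at -193 to -186 in Chac1 and at 15 to 22 in Trib3. The leading GENCODE transcripts of these 3 genes begin elsewhere than the RefSeq ones, so that the Asns match lies inside the first exon of Asns-201, whereas those of Trib3 and Chac1 end 7 and 173 bases before their GENCODE starts. TGACGTCA, which reads the same on both strands, was in 1.79% of windows and, among the 10 genes, in Ppp1r15a alone, at -12 to -5 where the RefSeq and GENCODE starts are the same. The antioxidant response element core (TGACNNNGC) was in 12.4% of windows and in Asns, Phgdh, Ppp1r15a and Sesn2; it opens with the same letters as TGACGTCA, and no match of one overlapped a match of the other in these genes. None of these patterns was found in the windows of Ddit4, Psat1, Shmt2 and Mthfd2, which says only that these letters are not there. Of the stress response transcription factors, Atf3 and Nupr1 each held TGATGNAA at -110 to -103. These matches describe sequence, and no binding was measured.

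The gene tables held 41938419 counts for replicate 1 and 30780681 for replicate 2, which puts the upper limit behind a count of 0 at 3 counts, or 0.0715 and 0.0975 CPM (counts scaled by the library total). Intervals and such limits cover counting error only, since reads are not independent molecules. Of 8 macrophage markers 8 were detected, with a summed level of 16477 and 18433 TPM (a level per transcript length, scaled alike in every library). Lyz2 alone made up 8427 and 11648.5 TPM of these sums. Only Lyz2 and Cd14 were higher in replicate 2, while Csf1r, Adgre1, Cd68, Itgam, Mertk and Fcgr1 were lower. Stromal markers were also present, 6 of 6 detected at a sum of 569 and 646 TPM, and neutrophil markers less so, 2 of 8 at 75.2 and 9.88 TPM with Ly6g at 0 in both libraries. For T cells only Cd4 was detected of 5 (58.2 and 37.7 TPM), for B cells only Cd79b of 4 (7.78 and 3.96 TPM), and none of 4 erythroid markers (Hbb-bs and Alas2 at 0) or 4 dendritic cell markers reached 1 TPM in both. In bulk RNA, fewer cells of a type and less RNA per cell cannot be told apart. The share of the ribosomal RNA gene CT010467.1 in all counts was 1.37% for replicate 1 (exact binomial 95% interval 1.37 to 1.38%) and 4.25% for replicate 2 (4.25 to 4.26%). The part of these differences in the values that follow was not tested.

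All 10 genes were detected, at 1 TPM or more in both libraries, a level that 48.7% of the 22028 protein-coding genes reached. Their levels spanned a wide range, from Chac1 at 2.92 ± 0.438 TPM to Ppp1r15a at 206 ± 202 TPM (mean ± SD, n = 2 here and throughout). The median gene of the group stood at 15.4 TPM in replicate 1 and 16.5 TPM in replicate 2. Ordered by mean level they ran Ppp1r15a, Mthfd2, Sesn2, Asns, Shmt2, Psat1, Trib3, Phgdh, Ddit4 and Chac1. Among neighbours in this order the values of both libraries were separate for Mthfd2 above Sesn2, Asns above Shmt2, Phgdh above Ddit4 and Ddit4 above Chac1. This rule leaves out counting error, which matters most for Ddit4 (140 and 117 counts) and Chac1 (100 and 93 counts). The other neighbours overlapped: Ppp1r15a with Mthfd2, Sesn2 with Asns, Shmt2 with Psat1, Psat1 with Trib3, and Trib3 with Phgdh. Within each library Ppp1r15a and Mthfd2 led and Ddit4 and Chac1 closed the order, while the order in the middle differed. In replicate 1 Shmt2 and Psat1 stood above Trib3 and Phgdh, and in replicate 2 they stood below them.

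**Figure D1:**
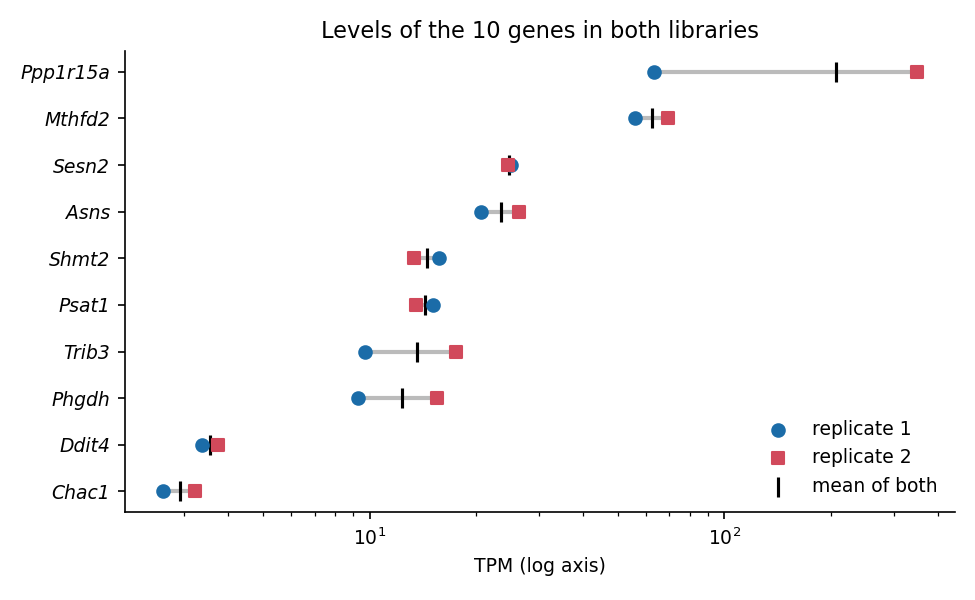
Level of each of the 10 genes in TPM (log axis) in replicate 1 (circles) and replicate 2 (squares), with the mean of both as a black bar. Ppp1r15a spans 63.4 to 349 TPM, while Chac1 and Ddit4 stay under 4 TPM in both libraries.

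Phgdh, Psat1 and Psph catalyse serine synthesis in that sequence. Phgdh (ENSMUSG00000053398.11, chromosome 3, 98313170 to 98339990, minus strand, mm10), which draws 3-phosphoglycerate out of glycolysis, stood at 9.25 TPM in replicate 1 and 15.5 TPM in replicate 2. On counts scaled by edgeR's TMM factors, its level in replicate 2 was 1.73 times that in replicate 1, a log2 ratio of 0.79 (exact 95% interval 0.60 to 0.98). Psat1 (ENSMUSG00000024640.9, chromosome 19, 15904678 to 15947337, minus strand), the aminotransferase of the middle step, stood at 15.1 and 13.5 TPM. Its log2 ratio was -0.14, and the interval of -0.28 to 0.01 held 0. The enzymes of the first and middle steps therefore stood in opposite order in the libraries, with a Phgdh to Psat1 ratio of TPM of 0.611 in replicate 1 and 1.15 in replicate 2. Psph, the phosphatase of the last step and not one of the 10, was lower than both of them, at 7.97 and 5.64 TPM. Psat1 exceeded Psph 1.90-fold and 2.39-fold in TPM, and Phgdh exceeded it 1.16-fold and 2.74-fold.

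Shmt2 and Mthfd2 act in succession in the mitochondrial folate pathway. Shmt2 (ENSMUSG00000025403.5, chromosome 10, 127517123 to 127522444, minus strand) splits serine into glycine and a one-carbon unit and stood at 15.7 and 13.4 TPM. It was the only one of the 10 genes whose whole interval lay on the side of replicate 1, with a log2 ratio of -0.19 (-0.34 to -0.03). Mthfd2 (ENSMUSG00000005667.8, chromosome 6, 83305691 to 83325908, minus strand), the dehydrogenase and cyclohydrolase that carries that unit further, stood at 55.9 and 69.4 TPM. This placed it above 89.2% and 91.7% of protein-coding genes, and above Shmt2 by 3.55-fold and 5.20-fold in TPM. Its log2 ratio was 0.35 (0.27 to 0.42), so the pair leaned to opposite sides. Asns (ENSMUSG00000029752.12, chromosome 6, 7675169 to 7693254, minus strand), which makes asparagine from aspartate and glutamine, stood at 20.6 and 26.3 TPM. Its log2 ratio of 0.40 (0.27 to 0.53) was close in size to that of Mthfd2.

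Chac1 and Trib3 are targets of Atf4 that act downstream of the stress signal. Chac1 (ENSMUSG00000027313.3, chromosome 2, 119351229 to 119354381, plus strand), an enzyme that breaks down glutathione, was the lowest of the 10 genes at 2.61 and 3.23 TPM. These levels rest on 100 and 93 counts (exact Poisson intervals 81.4 to 122 and 75.1 to 114), and its log2 ratio of 0.35 had an interval of -0.07 to 0.77. It still lay above 56.3% and 57.6% of protein-coding genes, many of which were not detected. Trib3 (ENSMUSG00000032715.9, chromosome 2, 152337422 to 152344032, minus strand), a pseudokinase that binds Akt and dampens Atf4 signalling, stood at 9.70 and 17.5 TPM. It was 1.83 times as high in replicate 2, or 0.87 on the log2 scale (0.70 to 1.05), from 477 and 639 counts. Trib3 and Phgdh thus had the widest spread between libraries after Ppp1r15a, although both stayed under 2-fold.

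Ddit4 and Sesn2 restrain mTORC1, the kinase complex that couples growth to nutrients. Ddit4 (ENSMUSG00000020108.4, chromosome 10, 59949669 to 59951834, minus strand), which acts through the Tsc complex, stood at 3.37 and 3.74 TPM. With 140 and 117 counts (exact Poisson intervals 118 to 165 and 96.8 to 140) its log2 ratio was 0.19 (-0.17 to 0.56), and no difference was detectable at this depth. Sesn2 (ENSMUSG00000028893.8, chromosome 4, 132492032 to 132510501, minus strand), a leucine sensor that acts on the GATOR complexes, stood at 25.0 and 24.5 TPM. Its ratio was the nearest to 0 among the 10 genes, a log2 value of 0.02 (-0.07 to 0.12) on 2245 and 1666 counts.

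Ppp1r15a (ENSMUSG00000040435.12, chromosome 7, 45522916 to 45526268, minus strand) guides protein phosphatase 1 to eIF2 and so ends the stress signal. It stood at 63.4 TPM in replicate 1 and 349 TPM in replicate 2, above 90.3% and 98.2% of protein-coding genes, so its mean of 206 TPM describes neither library. On 3673 and 14471 counts it was 5.39 times as high in replicate 2 (5.20 to 5.60), a log2 ratio of 2.43 (2.38 to 2.48). It was rank 11 from the highest ratio among the 12471 genes with at least 20 counts in each library. In replicate 1 it was 1.13 times as high as Mthfd2, and in replicate 2 it was 5.02 times as high. Against Chac1, the lowest gene of the group, it stood 24.3-fold higher in replicate 1 and 108-fold higher in replicate 2.

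Read over the group, 8 of the 10 genes were higher and 2 lower in replicate 2, where 46.4% of all 12471 counted genes were higher. Sesn2, counted as higher at 0.02, stood at -0.02 in the FASTQ-derived table. Counting intervals lay wholly above 0 for 5 genes, wholly below 0 for 1, and held 0 for 4. By the 2-fold rule 1 of the 10, Ppp1r15a, was at least 2-fold higher in replicate 2, as were 1.94% of all counted genes, and 0 were at least 2-fold lower, against 0.521%. The other 9 genes fell inside the central 95% of log2 ratios of all counted genes, which ran from -0.63 to 0.90. The median log2 ratio of the group was 0.35 with Ppp1r15a and 0.35 without it, beside -0.02 over all counted genes. With 1 library on each side no test was possible, and the intervals do not cover the spread between cultures.

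**Figure D2:**
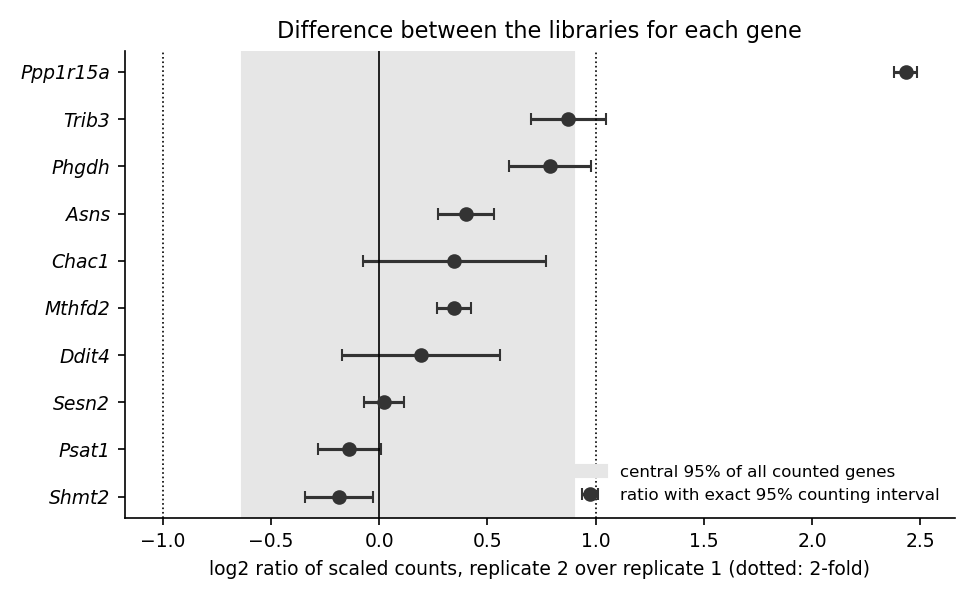
Log2 ratio of scaled counts in replicate 2 over replicate 1 for each of the 10 genes, with exact 95% counting intervals as bars, the central 95% of all counted genes shaded, and the 2-fold limits dotted. Ppp1r15a at 2.43 stands apart, and the other 9 genes lie inside the shaded band.

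The transcription factors known to act on these genes ranged widely in level. All 7 listed factors were detected, as were 48.7% of protein-coding genes. Their median was 172 and 230 TPM, beside 15.4 and 16.5 TPM for the 10 genes, although Cebpg lay below the latter in both libraries. Atf4, the central activator, stood at 179 and 250 TPM (log2 ratio 0.53), and Ddit3, its partner in prolonged stress, at 248 and 344 TPM (0.49). Atf3, a target and feedback factor, stood at 256 and 283 TPM (0.35), and Nupr1, a stress-induced chromatin protein, at 172 and 230 TPM (0.44). Cebpb stood at 44.4 and 65.0 TPM (0.59), Atf5 at 33.4 and 45.6 TPM (0.50), and Cebpg at 14.7 and 15.9 TPM (0.22). All 7 factors were thus higher in replicate 2, where 46.4% of all counted genes were higher, each with an interval above 0 and none by 2-fold. Of the 4 eIF2 kinases 3 were lower in replicate 2 and 1, Eif2ak3, was higher: Eif2ak1 stood at 31.3 and 27.3 TPM (log2 ratio -0.14), Eif2ak2 at 87.3 and 64.6 TPM (-0.36), Eif2ak3 at 5.44 and 6.77 TPM (0.26), and Eif2ak4 at 6.07 and 4.91 TPM (-0.20). In the whole list of eIF2 kinases and machinery, 16 of 16 were detected, led by the phosphatase subunits Ppp1ca (454 and 342 TPM) and Ppp1cc (119 and 107 TPM), the partners of Ppp1r15a. Of these, 5 were higher and 11 lower in replicate 2, beside 46.4% higher over all counted genes. Their log2 ratios ran from -0.49 for Eif2b3 to 0.26 for Eif2ak3.

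Among 23 further targets of Atf4, 19 were detected, and 17 of the 19 with enough counts were higher in replicate 2 (median log2 ratio 0.17). Over all genes, 48.7% of protein-coding genes were detected and 46.4% of counted genes were higher, with a median log2 ratio of -0.02. Counting intervals of these targets lay above 0 for 12, below 0 for 1 and held 0 for 6. The adaptor Sqstm1 (611 and 749 TPM) and the seryl-tRNA synthetase Sars (157 and 143 TPM, log2 ratio -0.09, the lowest) led in level, and Fam129a had the highest ratio, 0.92, at 6.42 and 12.3 TPM. Cbs, the lowest, held 1 count in each library. Of 18 enzymes of serine, glycine and one-carbon metabolism outside the 10, 16 were detected. Of the 16 counted, 6 were higher and 10 lower in replicate 2, beside 46.4% higher over all counted genes. Their median log2 ratio was -0.16, and their intervals lay above 0 for 1, below 0 for 8 and held 0 for 7. In this list Mat2a stood at 85.9 and 69.0 TPM and Gldc was lowest with 0 and 2 counts, while ratios ran from -0.60 for Mtr (20.4 and 12.3 TPM) to 0.12 for Aldh1l2 (3.39 and 3.85 TPM), a gene held by both lists. Of the serine and one-carbon enzymes among the 10 genes, Phgdh and Mthfd2 lay above this whole range, Psat1 and Shmt2 within it.

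Further pathways were set beside the group. The shares over all genes were again 48.7% of protein-coding genes detected and 46.4% of counted genes higher in replicate 2. Of 14 genes of the unfolded protein response outside eIF2, 14 were detected, 10 were higher and 4 lower in replicate 2, and the median log2 ratio was 0.15. The chaperones Calr (1036 and 934 TPM) and Hspa5 (437 and 643 TPM, the highest ratio at 0.60) led this list, Ern1 was lowest at 15.5 and 17.5 TPM, and Hsp90b1 had the lowest ratio, -0.20. Of 21 regulators of mTORC1 linked to Ddit4 and Sesn2, 20 were detected, 7 were higher and 14 lower, and the median log2 ratio was -0.13. Rragc (160 and 153 TPM) and Sec13 (118 and 110 TPM) were highest in level, and ratios ran from -0.79 for Castor1 (74 and 31 counts) to 0.27 for Rraga (32.7 and 38.1 TPM), so that both Ddit4 and Sesn2 lay inside the range of their pathway.

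Early genes of Tlr4 signalling also differed widely between the libraries. This list, like the others, was chosen with earlier results of these data known. Of its 16 genes, 16 were higher in replicate 2, beside 46.4% of all counted genes, and 15 at least 2-fold, beside 1.94%. Their log2 ratios ran from 0.52 for Ier3 to 2.57 for Cxcl2, with a median of 1.43. Tnf stood at 451 and 1198 TPM (log2 ratio 1.45), Zfp36 at 387 and 787 TPM (1.07), and the lowest, Fosb, at 0.92 and 3.96 TPM (2.13). Cxcl2, at 39.7 and 230 TPM, was the only one of the 16 with a ratio above that of Ppp1r15a. None of the other 6 lists had a counted gene 2-fold apart. Over all counted genes only 1.94% passed this limit toward replicate 2 and 0.521% toward replicate 1. Absence from such short lists therefore says little. Of the lists set side by side the early genes thus differed most, and their part in the Ppp1r15a value was not tested.

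**Figure D3:**
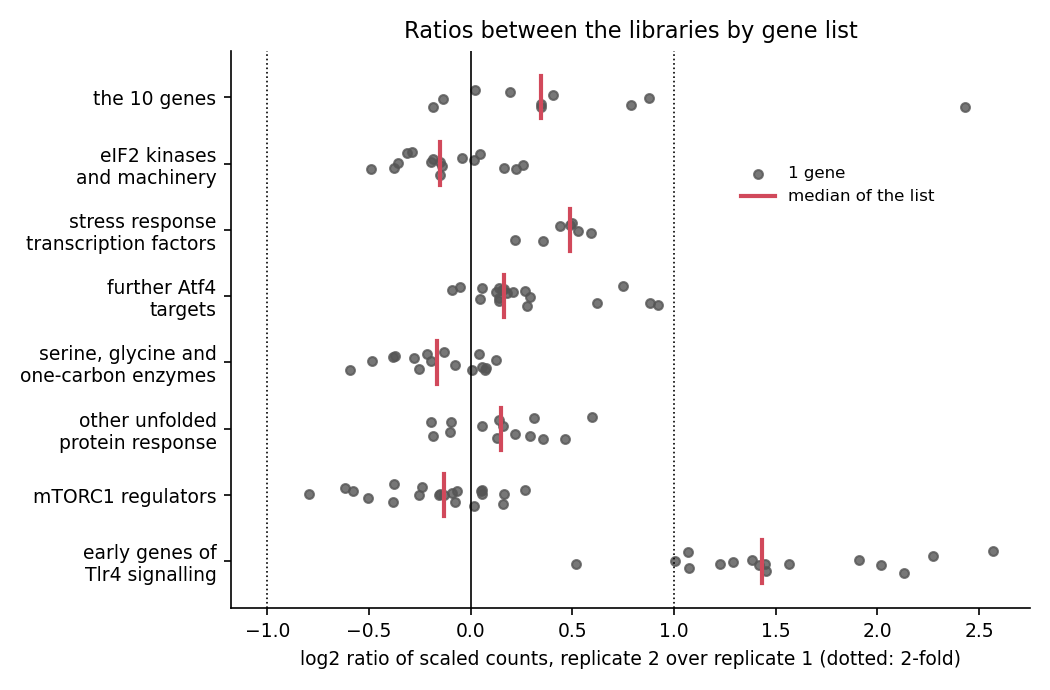
Log2 ratio of scaled counts in replicate 2 over replicate 1 for each gene (points) of the 10-gene group and of 7 other lists, with list medians as bars and the 2-fold limits dotted. The early genes centre on 1.43 and hold the only other ratios beyond 2-fold, while Ppp1r15a at 2.43 is the lone point of its group beyond that limit.

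Of the 10 genes, 7 have listed paralogues, and for 4 of these, Ddit4, Shmt2, Mthfd2 and Ppp1r15a, the gene was higher in TPM than all its paralogues in both libraries. Shmt2 exceeded its cytosolic counterpart Shmt1 (2.63 and 2.11 TPM) 5.98-fold and 6.33-fold. In the FASTQ-derived table Shmt1 stood higher, at 4.95 and 4.52 TPM, and Shmt2 exceeded it 2.83-fold and 2.42-fold. Mthfd2 exceeded Mthfd2l (3.59 and 3.54 TPM) 15.6-fold and 19.6-fold, the cytosolic Mthfd1 (13.6 and 11.3 TPM) 4.10-fold and 6.13-fold, and Mthfd1l (2.91 and 2.97 TPM) 19.2-fold and 23.4-fold. Shmt2 and Mthfd2, both mitochondrial, thus stood above Shmt1 and Mthfd1 of the cytosol. Mthfd2l and Mthfd1l stood below Mthfd1 in both libraries, so this order holds for the named pairs only. Ppp1r15a exceeded Ppp1r15b, the subunit regarded as constitutive (51.0 and 55.8 TPM, log2 ratio 0.16), 1.24-fold in replicate 1 and 6.26-fold in replicate 2. Ddit4 exceeded Ddit4l (1.43 and 0.58 TPM on 45 and 30 counts) 2.36-fold and 6.45-fold. Ddit4l was under 1 TPM in replicate 2, and the log2 ratio of its scaled counts was only -0.13 (-0.85 to 0.57). The change in this margin therefore rests on a low TPM value.

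The remaining 3 genes stood below at least 1 paralogue in at least 1 library. Sesn1 was 3.10-fold and 2.56-fold higher than Sesn2, at 77.5 and 62.6 TPM, while Sesn2 exceeded Sesn3 (3.88 and 4.16 TPM) 6.45-fold and 5.88-fold. Chac2 was 3.09-fold and 2.64-fold higher than Chac1, at 8.06 and 8.52 TPM. Trib3 and Trib1 stood in opposite order in the libraries, since the TPM ratio of Trib3 to Trib1 was 0.703 in replicate 1 and 1.68 in replicate 2. Trib1 stood at 13.8 and 10.4 TPM with a log2 ratio of -0.36 (-0.48 to -0.24), opposite in sign to that of Trib3, and Trib2 stood under 1 TPM at 0.45 and 0.55 TPM.

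**Figure D4:**
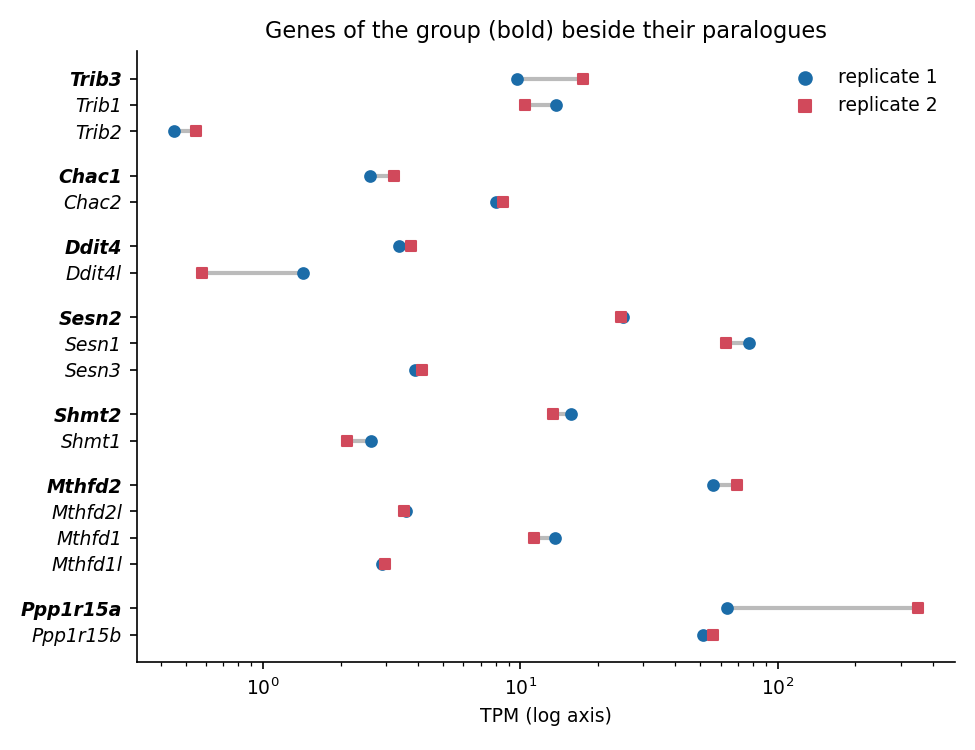
Level in TPM (log axis) of the 7 genes with listed paralogues (bold) and of those paralogues, in replicate 1 (circles) and replicate 2 (squares), joined by a line. Mthfd2, Shmt2, Ddit4 and Ppp1r15a lie to the right of all their paralogues, Chac1 and Sesn2 to the left of Chac2 and Sesn1, and Trib3 and Trib1 overlap.

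Most of the level of each gene came from 1 transcript. Chac1, Ddit4 and Sesn2 have 1 annotated transcript each. Of the other 7 genes, 4 (Asns, Phgdh, Mthfd2 and Trib3) had 1 transcript with at least 95% of the gene's TPM in both libraries, where 23.4% of 9909 detected protein-coding genes with more than 1 transcript did. Psat1-201 held 91.9% and 85.2% of Psat1, with Psat1-205, another coding transcript, at 5.62% and 10.3%. Shmt2-201 held 86.3% and 86.9% of Shmt2, with the coding transcript Shmt2-206 at 10.7% and 10.5%. Non-coding transcript types (retained introns, processed transcripts) took 2.51% and 4.52% of Psat1 and 2.92% and 2.62% of Shmt2, so that coding transcripts made up nearly all of both.

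The libraries were quantified once from alignments and once from the FASTQ files, and the levels of the 10 genes differed little between these tables. After removal of the shift common to all genes, a median log2 ratio of -0.18 for the FASTQ-derived over the alignment-derived values, 0 of the 10 genes were 2-fold apart, beside 0.671% of 10581 genes. The 10 genes lay between -0.10 for Phgdh and 0.04 for Mthfd2. Transcript shares were less alike. Psat1-205 held 24.4% and 34.5% of Psat1 in the FASTQ-derived table, against 5.62% and 10.3% in the alignment-derived one, so the split of Psat1 between its coding transcripts depends on the table. Ppp1r15a-201 held 98.6% and 90.7% of Ppp1r15a in the alignment-derived table. The short transcript Ppp1r15a-203 (chromosome 7, 45522916 to 45523769) accounted for 0% and 6.10% there, with 21.3 TPM in replicate 2 from 53.89 expected counts, and was listed at 0 in both libraries of the FASTQ-derived table. The longer coding transcript Ppp1r15a-202 was alike in both, with 0.91 and 11.0 TPM in the alignment-derived and 1.08 and 11.2 TPM in the FASTQ-derived table. In the FASTQ-derived table, where Ppp1r15a-203 is listed at 0, the whole gene stood at 59.9 and 292 TPM. Another gene overlaps 5 of the 10 (Sesn2, Psat1, Shmt2, Mthfd2 and Ppp1r15a), and each overlapping gene held at most 6 counts.

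**Figure D5:**
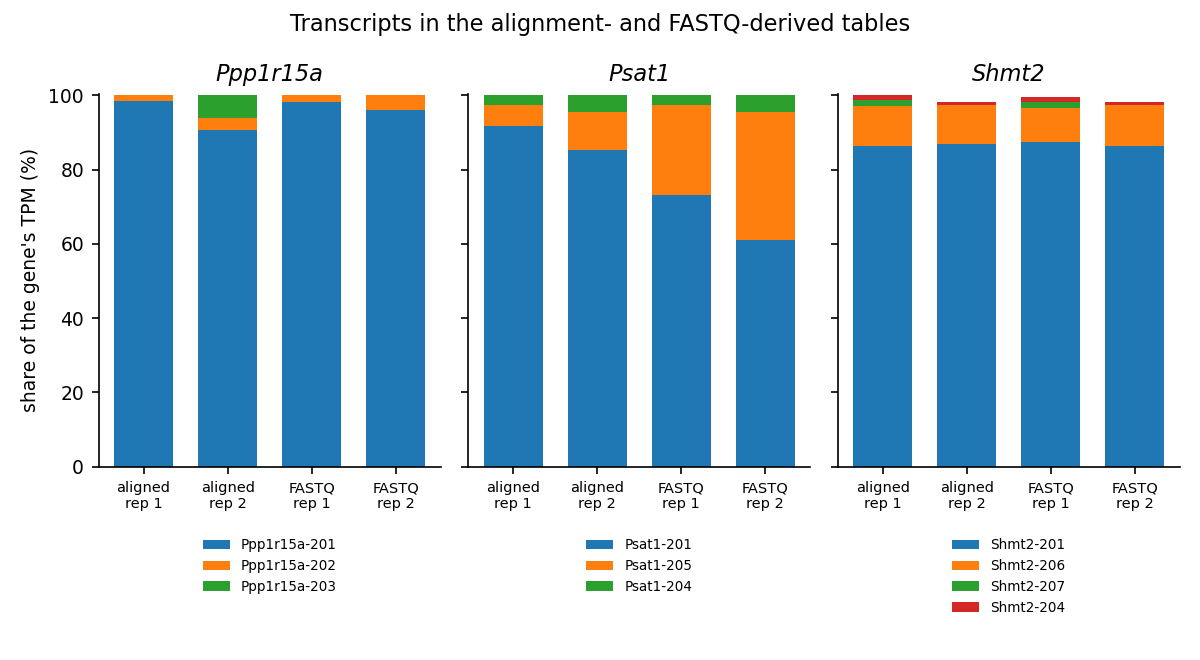
Share of the gene's TPM (%) taken by each transcript of Ppp1r15a, Psat1 and Shmt2 in the alignment-derived and FASTQ-derived tables of both replicates; transcripts under 1% in all 4 bars are left out. Psat1-205 takes 5.62% and 10.3% from alignments and 24.4% and 34.5% from FASTQ files, while Shmt2-201 stays between 86.3% and 87.5%.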

How the data were processed

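Polyadenylated RNA was sequenced in 2 libraries of 1 group; per the labels, 1 µg of RNA went into each and sizes ran from 250 to 400. The authors deposited 3 tables per library, made on mm10 with GENCODE M21 per the deposited notes; aligner, quantifier and any use of strand in counting: not given in the sources used here. Tables made from alignments, for genes and for transcripts, give expected counts and TPM, and the FASTQ-derived transcript table, made from 4 FASTQ files, holds estimated counts and TPM with effective lengths, per the file headers.

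Levels are the deposited TPM of the alignment-derived gene table. Its expected counts were rounded and scaled by TMM factors (edgeR 4.0.16, R 4.3.3; 1.00 and 0.997), 0.5 was added, and ratios are replicate 2 over replicate 1 with exact Clopper-Pearson 95% intervals. Counts of higher and lower genes, list ratios and the 2-fold rule took genes with at least 20 counts in each library. No gene was tested, since there is 1 library on each side. The ratio step was checked on simulated data. DESeq2 1.42.0 size factors, total counts, other filters, the FASTQ-derived table and, for levels, TMM-scaled CPM per kilobase were alternatives. Transcript shares are within a gene's TPM. Promoters came from RefSeq (GRCm38.p6). Proteins of paralogues were not compared here. Other steps ran in Python 3.11.15 with scipy 1.17.1, pandas 2.3.3 and numpy 2.4.6, and plots in matplotlib 3.10.9.

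The 10 genes, the lists and the markers were chosen with earlier results of these data known. Named genes were the 10, Psph, the paralogues, the transcription factors and the eIF2 kinases whatever their value, and of each further list the 2 highest and the lowest by mean TPM and the highest and lowest ratio; 1 gene that this rule names is not reported here. Ddit3 had 2 entries, of which ENSMUSG00000025408.15 was used, and Mars1 was matched through a RefSeq synonym.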

Additional observations from a re-analysis of the deposited data

How the results depend on the processing

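The median level of the 10 genes, 14.4 TPM over library means, was 12.6 TPM in the FASTQ-derived table and 15.4 to 16.5 TPM when either replicate was left out. As TMM-scaled CPM per kilobase, a different unit, all 10 mean levels were lower in number. Asns stood at 16.0 in place of 23.4, Mthfd2 at 42.8 in place of 62.7, and Ppp1r15a at 142 in place of 206. The log2 ratio of Sesn2 changed sign in the FASTQ-derived table, from 0.02 to a value of -0.022, inside its counting interval; the cause was not tested. Of 40 single-gene ratios under other scalings, another added count and the FASTQ-derived table, 39 stayed inside the counting interval of the reported ratio with the same sign, Sesn2 being the exception. At 5 TPM, 8 of the 10 genes were detected, without Ddit4 and Chac1. The level of Ppp1r15a was 63.4 TPM without replicate 2 and 349 TPM without replicate 1. No paired analysis was possible because there is 1 group. With 2 libraries, both of the same treatment, no difference was tested, and at about 100 counts for Chac1 and Ddit4 a ratio could not be told from 1.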
